A study of Mus musculus with 12 samples.

Results

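Protein phosphatase 2A (PP2A) regulatory subunits and modulators were measured in mouse glomeruli as 10 genes of the 14096 listed in each library. Their rows were matched by symbol, and the members were chosen with earlier results of these data known. They comprise the B55 subunit genes Ppp2r2a and Ppp2r2d, and the B56 subunit genes Ppp2r5a, Ppp2r5b, Ppp2r5c, Ppp2r5d and Ppp2r5e. The others are the inhibitor gene Set, and Igbp1 and Ppme1, which act on the catalytic subunit. All 10 were found, and none was near the bottom of the measured range, with recovered reads per mouse from 879 for Ppp2r2a to 4673 for Set. The study asked whether arctigenin (ATG), a plant lignan, protects the kidney in diabetic kidney disease, and it reported that ATG activates PP2A. Glomerular RNA was sequenced to look into the mechanism of that protection.

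The 12 male mice, 3 in each of 4 groups, all lacked endothelial nitric oxide synthase (eNOS−/−), a deletion that the nondiabetic controls carried as well, and the strain label reads C57BL/6J. Diabetes was produced at 8 weeks of age by streptozotocin (STZ), a beta-cell toxin, at 50 mg/kg per day for 5 days. Nondiabetic mice were given citrate buffer. Treatment began 10 weeks after induction and lasted 8 weeks, with ATG at 40 mg/kg per day or its vehicle, 5% DMSO, by gavage. The groups are vehicle-treated nondiabetic, ATG-treated nondiabetic, vehicle-treated diabetic and ATG-treated diabetic mice. RNA came from isolated glomeruli. The protocol in the labels also describes dissociation and sorting of cells by a fluorescent protein, a step absent from the methods of the study, and no label ties a library to a sorted fraction.

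PP2A is a serine/threonine phosphatase built from a scaffold subunit, a catalytic subunit and 1 of many interchangeable regulatory B subunits. The B subunit sets which phosphoproteins the enzyme meets and where in the cell it acts. B55 enzymes are known for mitotic exit and growth signalling, and B56 enzymes for opposing kinases at centromeres, in Wnt signalling and in the Akt pathway. Set binds and inhibits the holoenzyme, alpha4 (the Igbp1 product) shelters free catalytic subunits, and the methylesterase Ppme1 removes the methyl group at the end of the catalytic subunit that favours binding of some B subunits.

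Promoter windows of 4 genes are shown because they belong to the genes on which the comparisons below turn: Ppp2r5b, called higher in diabetic mice with either treatment, Ppp2r5d and Ppp2r5a, called higher and lower, respectively, in the comparison of ATG-treated mice but not with vehicle, and Ppp2r2d, which differed most between the diabetic groups by p. Each holds 250 bases before and 50 bases after the annotated start, 5′ to 3′ along the gene, from RefSeq on GRCm38.p6. The capitals mark matches on either strand to the GC box, read as GGGCGG, the CAAT-type box, read as CCAAT, the E-box, read as CACGTG, the cAMP response element, read as TGACGTCA, or the TATA-type box, read as TATAAA. No window of a member was found for Ppp2r2a and Ppp2r5e, and 8 of the 10 members had at least 1 window.
Ppp2r5b (chr19:6235791-6236090, minus strand): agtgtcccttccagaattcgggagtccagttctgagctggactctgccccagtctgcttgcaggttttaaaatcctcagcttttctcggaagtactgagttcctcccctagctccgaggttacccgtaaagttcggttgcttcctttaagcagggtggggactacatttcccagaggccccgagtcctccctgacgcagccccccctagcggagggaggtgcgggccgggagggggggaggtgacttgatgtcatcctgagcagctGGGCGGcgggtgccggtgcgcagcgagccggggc
Ppp2r5a (chr1:191396992-191397291, minus strand): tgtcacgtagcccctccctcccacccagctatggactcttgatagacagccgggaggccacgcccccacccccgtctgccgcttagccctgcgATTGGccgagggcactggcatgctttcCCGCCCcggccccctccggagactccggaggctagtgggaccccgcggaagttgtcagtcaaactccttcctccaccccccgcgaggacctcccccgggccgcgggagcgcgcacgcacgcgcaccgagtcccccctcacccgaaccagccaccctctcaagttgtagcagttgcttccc
Ppp2r5d (chr17:46704953-46705252, minus strand): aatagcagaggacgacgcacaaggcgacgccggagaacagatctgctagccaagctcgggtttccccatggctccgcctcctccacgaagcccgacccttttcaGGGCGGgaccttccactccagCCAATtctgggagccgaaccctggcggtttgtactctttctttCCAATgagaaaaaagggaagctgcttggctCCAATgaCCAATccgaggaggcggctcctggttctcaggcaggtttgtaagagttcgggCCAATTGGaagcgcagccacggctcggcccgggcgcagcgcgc
Ppp2r2d (chr7:138846136-138846435, plus strand): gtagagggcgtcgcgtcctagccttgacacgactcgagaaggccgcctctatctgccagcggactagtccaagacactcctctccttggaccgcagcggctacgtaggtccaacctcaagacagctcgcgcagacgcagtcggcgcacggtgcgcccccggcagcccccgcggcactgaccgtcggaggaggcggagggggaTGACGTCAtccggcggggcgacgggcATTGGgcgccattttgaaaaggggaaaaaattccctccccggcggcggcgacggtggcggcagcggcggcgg

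The windows were rich in G and C, at 61.7% in Ppp2r5b, 69.0% in Ppp2r5a, 60.3% in Ppp2r5d and 68.3% in Ppp2r2d, against a median of 52.7% over 32851 promoter windows. A TATAAA match was absent from all 12 windows of the 8 members, and 13.6% of all windows hold 1. A GGGCGG match was present in the windows of Ppp2r5b, Ppp2r5a and Ppp2r5d, and 35.7% of all windows hold it. A CCAAT match was absent from the Ppp2r5b window, present once in that of Ppp2r5a and present 6 times in that of Ppp2r5d, where a pair of them overlap in opposite directions. CCAAT occurs in 37.4% of all windows, but 6 or more matches occur in 0.0791% of them. The Ppp2r2d window holds the full TGACGTCA, which 1.79% of all windows contain. A CACGTG match, found in 7.15% of all windows, was present for Set and Igbp1 but not in the 4 windows shown.

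Libraries held 23.6 to 29.8 M recovered reads on the listed genes, and mice of a group correlated at Pearson's r from 0.972 to 0.994 over all genes. The lowest values were between vehicle-treated diabetic replicates 2 and 3 and between ATG-treated nondiabetic replicates 2 and 3, so the members' calls without replicate 3 of both groups, an alternative chosen after seeing the data, are given with their summary. All 15 podocyte and all 12 glomerular endothelial markers were detected in every library, with at least 1247 and 2010 reads. Podocyte markers took 2.12% to 2.32% of reads in vehicle-treated nondiabetic mice, 0.969% to 2.34% in ATG-treated nondiabetic mice, 2.09% to 3.56% in vehicle-treated diabetic mice and 2.29% to 2.60% in ATG-treated diabetic mice. Markers of other cells moved with the groups. The 42 tubule markers, all of them detected, took 1.82% to 2.24% of reads in vehicle-treated nondiabetic mice, 2.66% to 3.74% in ATG-treated nondiabetic mice, 0.453% to 1.23% in vehicle-treated diabetic mice and 0.882% to 1.05% in ATG-treated diabetic mice. Of the 12 glomerular endothelial markers, 6 were called higher for diabetes with vehicle and 12 with ATG. Leukocyte markers (14 genes) took 0.0184% to 0.0295% and 0.0134% to 0.0172% in vehicle- and ATG-treated nondiabetic mice, and 0.0319% to 0.0445% and 0.0186% to 0.0353% in vehicle- and ATG-treated diabetic mice. On this scale diabetic and nondiabetic mice were apart within each treatment, while the mean log2 levels of the list overlapped with vehicle and with ATG, and limma called 6 of the 14 higher for diabetes with vehicle and 6 with ATG. All 14 were negative for ATG in diabetic and in nondiabetic mice, with 0 called by limma in each. At an unadjusted p under 0.05 there were 7 in diabetic mice, where 4.51% of all listed genes were under it, and 5 in nondiabetic mice, where 30.2% were. In whole glomeruli, fewer cells of a type and less RNA per cell cannot be told apart.

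Each level below is the deposited normalized expression on a log2 scale, and each difference is a log2 fold change with its standard error (SE) from 1 limma fit over all listed genes and all 12 mice, called at a Benjamini-Hochberg adjusted p under 0.05. An exact permutation test of 3 mice against 3 cannot give a p below 0.1. Adjusted for transcript length, Set was the most abundant of the 10 at a median of 54.7 RPKM (recovered reads scaled to library total and transcript length) over 12 mice, higher than Ppp2r5c in 12 of 12. Ppp2r5c (40.0) and Igbp1 (38.8) did not separate, since Ppp2r5c was higher in 8 mice. Ppme1 followed at 33.1, Ppp2r5a at 31.5 and Ppp2r5b at 26.0, and these neighbours exchanged places in 3 of 12 mice at each step. Ppp2r2d (22.7), Ppp2r5d (19.1), Ppp2r5e (16.2) and Ppp2r2a (10.1) came last, and Ppp2r2a, below Ppp2r5e in 12 of 12 mice, stood at the 49.4th percentile of all listed genes on this scale. All 10 genes were steady within groups. Their pooled SD ran from 0.04 log2 units for Ppp2r5c to 0.11 for Ppp2r5b, below the median of 0.15 over all listed genes.

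**Figure D1:**
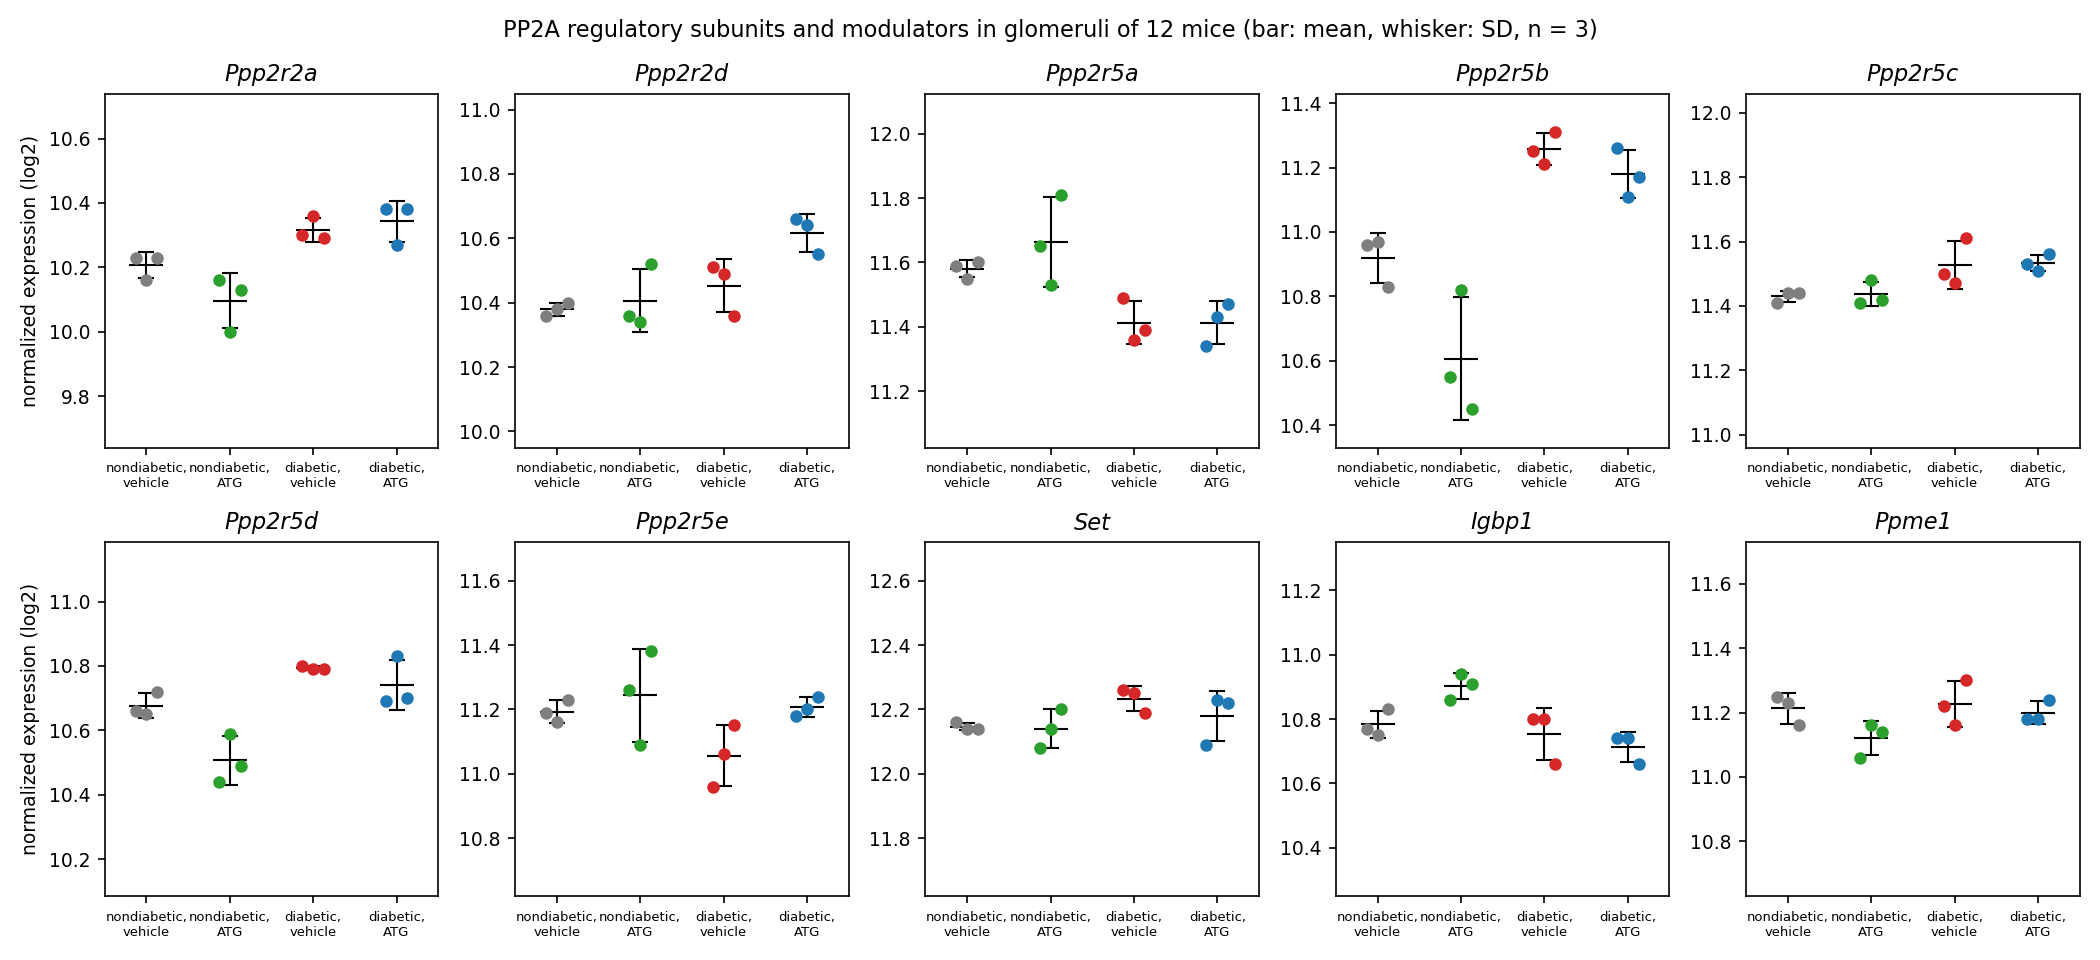
Normalized expression (log2, vertical axis, each panel spanning 1.1 units) of the 10 genes in each of 12 mice by group, with the mean (bar) and SD (whisker) of 3 mice. Ppp2r5b separates most, with diabetic mice between 11.11 and 11.31 and nondiabetic mice between 10.45 and 10.97.

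Ppp2r5b was the member with the largest differences for diabetes with either treatment and for ATG in nondiabetic mice, though not for ATG in diabetic mice. It encodes B56 beta, a subunit known for directing PP2A to Akt, and lies at chr19:6227767-6235840 (mm10, minus strand). Vehicle-treated nondiabetic mice had 10.96, 10.97 and 10.83, and ATG-treated nondiabetic mice 10.55, 10.82 and 10.45. Vehicle-treated diabetic mice had 11.25, 11.21 and 11.31, and ATG-treated diabetic mice 11.26, 11.11 and 11.17. Every diabetic mouse was above every nondiabetic mouse, and the ATG-treated nondiabetic mice were the lowest of all.

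Among vehicle-treated mice, Ppp2r5b was higher with diabetes by 0.33 (SE 0.09), a 1.26-fold difference, from 10.92 ± 0.08 to 11.26 ± 0.05 (SD, n = 3), with a limma adjusted p of 0.0289. This was the only call among the 10 members in that comparison (1 higher), where 18.9% of all listed genes were called and 10.2% were called higher. In ATG-treated mice the difference between diabetic and nondiabetic mice was 0.57 (SE 0.09), or 1.49-fold, with a limma adjusted p of 0.000885. Both comparisons rest on different mice. The first call depends on single animals. It was lost with the replicate number as a block (0.26, limma adjusted p = 0.106) and without the pair of nondiabetic mice whose titles carry no number (0.29, limma adjusted p = 0.0612). Number 3 occurs only in diabetic mice, and the mice without a number are all nondiabetic. Under the block, diabetic and nondiabetic mice are therefore compared only through numbers 1 and 2. Without vehicle-treated nondiabetic replicate 1, 2 or 3 the difference was 0.36, 0.36 and 0.29 with limma adjusted p of 0.0728, 0.0561 and 0.100, and without vehicle-treated diabetic replicate 1 or 3 it was 0.34 and 0.31 with 0.0799 and 0.0693. The second call held in each of the 12 fits that left out a mouse, with differences from 0.50 to 0.68.

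Tubule markers moved with Ppp2r5b. Over 12 mice its level and the mean log2 level of the 42 tubule markers had r = −0.917, and r = −0.470 after group means were removed. With that mean entered as a covariate, the difference in vehicle-treated mice was 0.16 (limma adjusted p = 0.522) and that in ATG-treated mice 0.36 (limma adjusted p = 0.285). With the podocyte marker mean as a covariate, an alternative chosen after seeing the data, they were 0.31 (0.00540) and 0.42 (0.00463 as limma adjusted p). The part of tubule content in the result was not tested beyond these values.

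Ppp2r5a, which encodes B56 alpha, ran the other way. Vehicle-treated nondiabetic mice had 11.59, 11.55 and 11.60, and ATG-treated nondiabetic mice 11.65, 11.53 and 11.81. Vehicle-treated diabetic mice had 11.49, 11.36 and 11.39, and ATG-treated diabetic mice 11.34, 11.43 and 11.47. All 6 diabetic mice were below all 6 nondiabetic mice. The gene lies at chr1:191351981-191397041 (mm10, minus strand). It was lower in diabetic mice by −0.24 (SE 0.07) among ATG-treated mice, with a limma adjusted p of 0.0212, and the difference was −0.17 (SE 0.07, limma adjusted p = 0.135) among vehicle-treated mice. The call was lost without ATG-treated nondiabetic replicate 3, the highest mouse (−0.17, limma adjusted p = 0.0789), and without ATG-treated diabetic replicate 1, the lowest (−0.21, limma adjusted p = 0.0751). It was also lost without the pair of nondiabetic mice whose titles carry no number (−0.17, limma adjusted p = 0.105), with the replicate number as a block (−0.21, limma adjusted p = 0.0741) and with only the groups compared in the fit (−0.24, limma adjusted p = 0.0703). With the podocyte covariate it was −0.16 (limma adjusted p = 0.165) and with the tubule covariate −0.22 (SE 0.15, limma adjusted p = 0.465).

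Across the 12 mice, Ppp2r5a and Ppp2r5b had r = −0.913, the most negative value among the 45 pairs of members, and r = −0.779 with group means removed. Both values describe the same 12 libraries. Within a library, the log2 level of Ppp2r5b minus that of Ppp2r5a, a pair chosen after the values of both genes were seen, was −0.77 to −0.58 in vehicle-treated nondiabetic mice and −1.36 to −0.71 in ATG-treated nondiabetic mice. It was −0.24 to −0.08 in vehicle-treated diabetic mice and −0.33 to −0.08 in ATG-treated diabetic mice. That the diabetic and nondiabetic ranges are apart follows from the separation of each gene alone.

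As shares of the summed length-adjusted level of the B56 genes, a description chosen after their values were seen, Ppp2r5a went from 25.3% ± 0.406 to 21.7% ± 1.05 (SD, n = 3) between vehicle-treated nondiabetic and diabetic mice. Ppp2r5b went from 18.3% ± 0.989 to 22.1% ± 0.177. In ATG-treated mice the shares were 27.7% ± 2.42 and 21.8% ± 0.847 for Ppp2r5a, and 15.2% ± 2.13 and 21.0% ± 1.22 for Ppp2r5b. Ppp2r5c held the largest share in all groups but moved little, from 29.7% ± 0.352 in vehicle-treated nondiabetic mice to 30.7% ± 0.328 in ATG-treated diabetic mice. The sum itself was 131 ± 0.224 RPKM in vehicle-treated nondiabetic, 126 ± 2.76 in ATG-treated nondiabetic, 137 ± 4.18 in vehicle-treated diabetic and 137 ± 1.56 in ATG-treated diabetic mice.

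**Figure D2:**
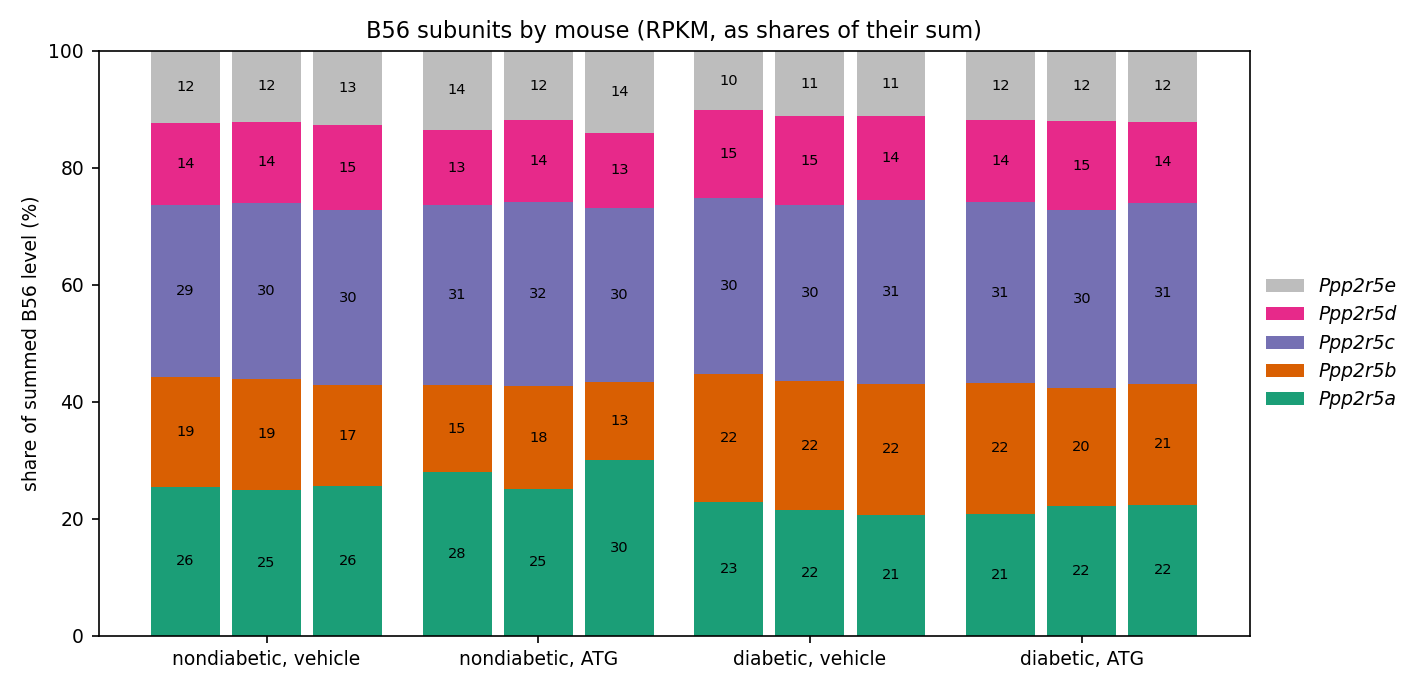
Share (%, vertical axis) of each of the 5 B56 genes in their summed level (RPKM) in each of 12 mice, 3 bars per group, with the rounded share printed in each segment. Ppp2r5b (orange) takes 20.1% to 22.4% in the 6 diabetic mice and 13.3% to 19.0% in the 6 nondiabetic mice, and Ppp2r5a (green) 20.7% to 22.8% and 24.9% to 30.0%.

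Ppp2r5d encodes B56 delta, a subunit known for roles in mitosis and in neuronal signalling, and lies at chr17:46682991-46705002 (mm10, minus strand). Vehicle-treated nondiabetic mice had 10.66, 10.65 and 10.72, and ATG-treated nondiabetic mice 10.44, 10.59 and 10.49. Vehicle-treated diabetic mice had 10.80, 10.79 and 10.79, and ATG-treated diabetic mice 10.69, 10.83 and 10.70. Diabetic and nondiabetic mice did not overlap within either treatment. The difference was 0.12 (SE 0.06, limma adjusted p = 0.173) with vehicle and 0.23 (SE 0.06, limma adjusted p = 0.00941) with ATG. The second call held in each of the 12 fits without a mouse and was lost with the podocyte covariate (0.19, limma adjusted p = 0.0647) and with the tubule covariate (0.24, SE 0.12, limma adjusted p = 0.327). Ppp2r5d and Ppp2r5b had r = 0.879 over 12 mice, the highest value among the member pairs, and 0.173 within groups.

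Ppp2r5c and Ppp2r5e did not pass the test in any comparison. Ppp2r5c, the B56 gamma gene at chr12:110485739-110571690 (mm10, plus strand), is known for opposing p53 degradation and for mitotic roles. Its nondiabetic mice had 11.41, 11.44 and 11.44 with vehicle and 11.41, 11.48 and 11.42 with ATG. Its diabetic mice had 11.50, 11.47 and 11.61 with vehicle and 11.53, 11.51 and 11.56 with ATG. The groups differed by about the same small amount with either treatment, 0.10 (SE 0.05, limma adjusted p = 0.226) with vehicle and 0.10 (SE 0.05, limma adjusted p = 0.153) with ATG. With group means removed, Ppp2r5c followed the tubule markers most closely of all members, at r = −0.925, and Ppme1 came next at r = −0.882.

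Ppp2r5e, the B56 epsilon gene at chr12:75450881-75596200 (mm10, minus strand), had its lowest group mean in vehicle-treated diabetic mice. Nondiabetic mice had 11.19, 11.16 and 11.23 with vehicle and 11.26, 11.09 and 11.38 with ATG. Diabetic mice had 10.96, 11.06 and 11.15 with vehicle and 11.18, 11.20 and 11.24 with ATG. The vehicle-treated diabetic mice overlapped neither the vehicle-treated nondiabetic nor the ATG-treated diabetic mice, by a margin of under 0.03 log2 units at the closest pair. The difference was −0.14 (SE 0.08, limma adjusted p = 0.230) for diabetes with vehicle and 0.15 (SE 0.08, limma adjusted p = 1.00) for ATG in diabetic mice.

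Among the B55 genes, Ppp2r2a encodes the B55 alpha subunit, known for dephosphorylating mitotic Cdk1 substrates and Akt, and lies at chr14:67014056-67072471 (mm10, minus strand). Nondiabetic mice had 10.23, 10.16 and 10.23 with vehicle and 10.16, 10.00 and 10.13 with ATG. Diabetic mice had 10.30, 10.36 and 10.29 with vehicle and 10.38, 10.27 and 10.38 with ATG. Every diabetic mouse was above every nondiabetic mouse. The difference was 0.11 (SE 0.06, limma adjusted p = 0.254) with vehicle and 0.25 (SE 0.06, limma adjusted p = 0.00881) with ATG, and the latter call held in each of the 12 fits without a mouse. It was lost with the tubule covariate (0.35, SE 0.12, limma adjusted p = 0.169).

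Ppp2r2d encodes B55 delta, known for its part in timing mitotic entry and exit, and lies at chr7:138846386-138883056 (mm10, plus strand). Nondiabetic mice had 10.36, 10.38 and 10.40 with vehicle and 10.36, 10.34 and 10.52 with ATG. Diabetic mice had 10.51, 10.49 and 10.36 with vehicle and 10.66, 10.64 and 10.55 with ATG. The ATG-treated diabetic mice were above all 9 other mice. Against ATG-treated nondiabetic mice they were higher by 0.21 (SE 0.07, limma adjusted p = 0.0262). The call was lost without ATG-treated nondiabetic replicate 1 (0.18, limma adjusted p = 0.0863) or 2 (0.18, 0.0647), without ATG-treated diabetic replicate 1 (0.19, 0.0783) or 2 (0.20, limma adjusted p = 0.0755), and under median-ratio scaling (0.17, 0.0795). It was also lost with only the groups compared in the fit (0.21, limma adjusted p = 0.0723) and with the tubule covariate (0.37, SE 0.13, limma adjusted p = 0.158). With vehicle the diabetic and nondiabetic groups overlapped, and the difference was 0.07 (SE 0.07, limma adjusted p = 0.471).

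Set, at chr2:30066474-30072577 (mm10, plus strand), encodes I2PP2A, a histone chaperone and PP2A inhibitor. Nondiabetic mice had 12.16, 12.14 and 12.14 with vehicle and 12.08, 12.14 and 12.20 with ATG. Diabetic mice had 12.26, 12.25 and 12.19 with vehicle and 12.09, 12.23 and 12.22 with ATG. The vehicle-treated groups did not overlap, at a difference of 0.09 (SE 0.06, 95% interval −0.04 to 0.22, limma adjusted p = 0.290), and the ATG-treated groups did. Ppme1, at chr7:100326737-100371896 (mm10, minus strand), spanned 11.06 to 11.30 over all 12 mice. Its differences for diabetes were 0.01 (SE 0.06, limma adjusted p = 0.890) with vehicle and 0.08 (SE 0.06, limma adjusted p = 0.256) with ATG.

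Igbp1, at chrX:100494291-100516125 (mm10, plus strand), was the modulator with a call. Nondiabetic mice had 10.77, 10.75 and 10.83 with vehicle and 10.86, 10.94 and 10.91 with ATG. Diabetic mice had 10.80, 10.80 and 10.66 with vehicle and 10.74, 10.74 and 10.66 with ATG. The ATG-treated nondiabetic mice were above all other mice. Igbp1 was lower in diabetic than in nondiabetic ATG-treated mice by −0.19 (SE 0.06, limma adjusted p = 0.0255), and the difference was −0.03 (SE 0.06, limma adjusted p = 0.773) in vehicle-treated mice. The call was lost without ATG-treated nondiabetic replicate 2 (−0.17, limma adjusted p = 0.0556) or 3 (−0.18, 0.0629) or ATG-treated diabetic replicate 3 (−0.16, limma adjusted p = 0.0904), and the tubule covariate took it to −0.03 (limma adjusted p = 0.902). It was also lost without the mice with no number in their titles (−0.18, limma adjusted p = 0.0790), with the replicate block (−0.14, limma adjusted p = 0.115), with only the groups compared (−0.19, limma adjusted p = 0.0620) and with the podocyte covariate (−0.16, limma adjusted p = 0.127). A sequence-related gene, Igbp1b, lies on another chromosome, and how reads shared by both were counted is not given in the sources used here.

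Across the 10 members, diabetes in vehicle-treated mice gave 1 call, 7 positive and 3 negative differences and a median of 0.08, against a median of 0.01 over all listed genes. The groups did not overlap for 7 of 10 members and for 41.7% of all listed genes. Diabetes in ATG-treated mice gave 6 calls, 4 higher (Ppp2r5b, Ppp2r2a, Ppp2r5d and Ppp2r2d) and 2 lower (Ppp2r5a and Igbp1), where 46.7% of all listed genes were called, 25.9% higher and 20.8% lower. The groups did not overlap for 8 of 10 members and for 56.1% of all listed genes, and the members' median was 0.09 against 0.05. For 10 genes, both counts of calls lie near the background shares. The background moves with single mice, from 2659 genes called for diabetes with vehicle to 801, 1587 and 1262 without vehicle-treated nondiabetic replicate 1, 2 or 3 and 1003 without vehicle-treated diabetic replicate 1. In ATG-treated mice, the call count was 3 with only those 2 groups in the fit, 3 with the podocyte covariate and 0 with the tubule covariate. Under the tubule covariate the differences of Ppp2r2a (0.35) and Ppp2r2d (0.37) were larger than without it, those of Ppp2r5d (0.24) and Ppp2r5a (−0.22) were about as large, those of Ppp2r5b (0.36) and Igbp1 (−0.03) were smaller, and the SE ran from 0.11 to 0.17. With the replicate block the count was 4. In the same comparison 12 of 12 endothelial, 7 of 10 mesangial and contractile and 4 of 15 podocyte markers were higher, and their part in the members' calls was not tested beyond the podocyte covariate. Without vehicle-treated diabetic replicate 3 and ATG-treated nondiabetic replicate 3, the counts were 1 with vehicle and 5 with ATG, with Ppp2r5a no longer called (−0.17, limma adjusted p = 0.0760).

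**Figure D3:**
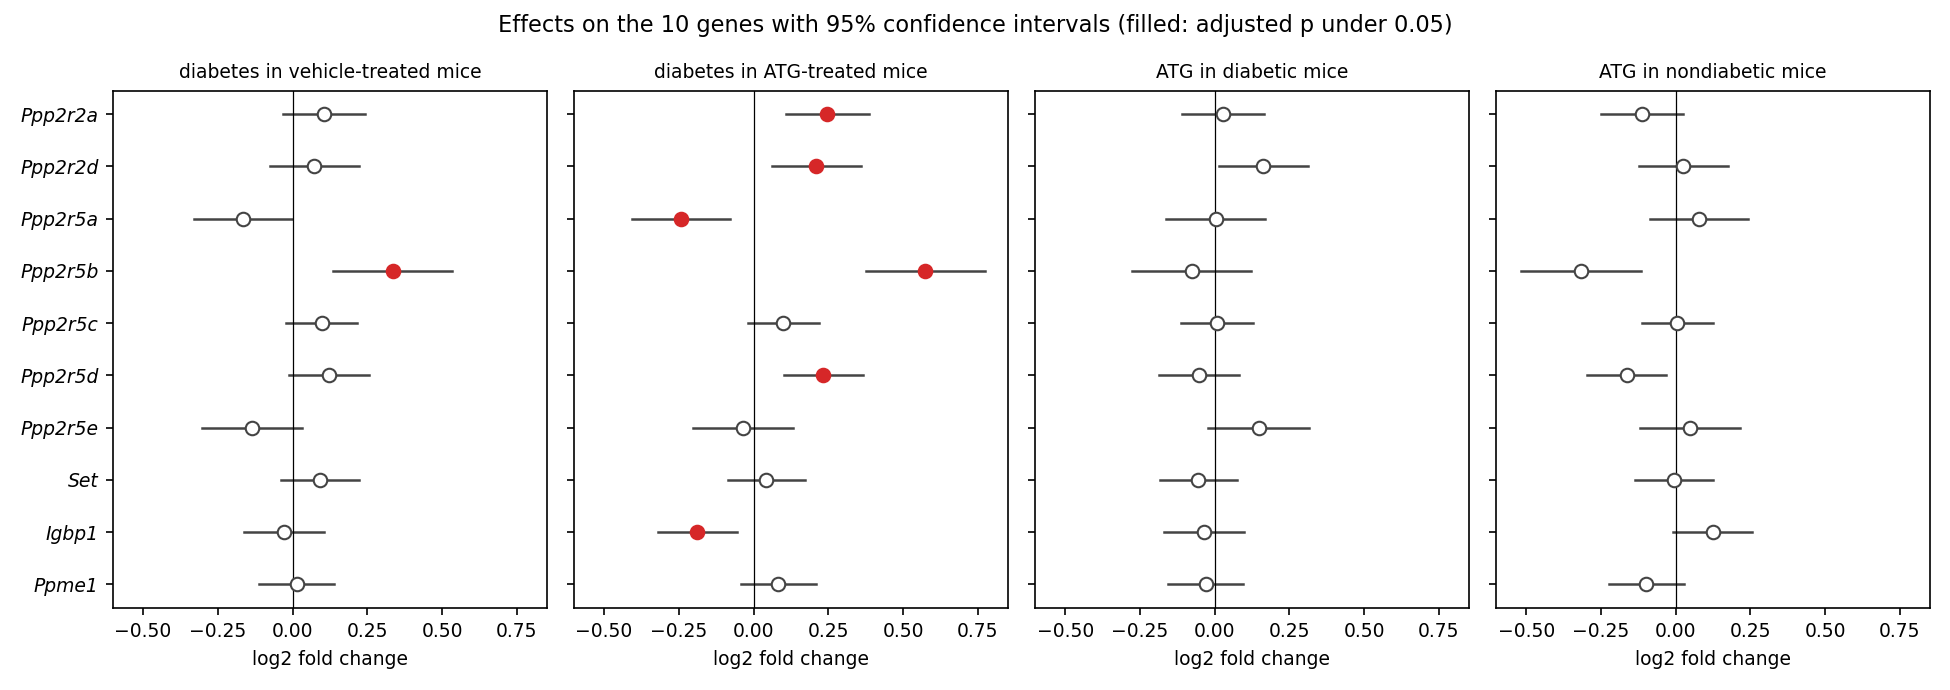
Log2 fold change (horizontal axis) of each of the 10 genes in 4 comparisons, with 95% confidence intervals from limma and filled points for an adjusted p under 0.05. There is 1 filled point for diabetes with vehicle (Ppp2r5b), there are 6 for diabetes with ATG, and none for ATG in diabetic or in nondiabetic mice.

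ATG in diabetic mice changed no member past the threshold. Limma called 0 of 10 members and 0% of all listed genes, with 1 member (Ppp2r2d) and 636 genes at an unadjusted p under 0.05, and limma-voom on the recovered reads also called 0 members and 0 genes. Ppp2r2d was 10.45 ± 0.08 with vehicle and 10.62 ± 0.05 with ATG (SD, n = 3), a difference of 0.16 (SE 0.07, 95% interval 0.01 to 0.31, limma adjusted p = 1.00). The groups did not overlap for 2 of 10 members, Ppp2r2d and Ppp2r5e, and for 10.2% of all listed genes. The other 8 differences lay between −0.08 for Ppp2r5b and 0.03 for Ppp2r2a. The widest of their 95% intervals, that of Ppp2r5b, ran from −0.28 to 0.12.

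ATG in nondiabetic mice also gave no call among the members, while 5.22% of all listed genes were called. Of the markers, 6 of 12 endothelial and 6 of 10 mesangial and contractile genes were lower, and their part in the values below was not tested. Limma found 2 members at an unadjusted p under 0.05, a smaller share than the 30.2% of all listed genes, Ppp2r5b at −0.32 (SE 0.09, adjusted p = 0.0642) and Ppp2r5d at −0.16 (SE 0.06, adjusted p = 0.110), and limma-voom called 0 members. Both passed without ATG-treated nondiabetic replicate 2, at −0.42 (limma adjusted p = 0.00463) and −0.21 (limma adjusted p = 0.0357). The Ppp2r5b difference was −0.17 (limma adjusted p = 0.378) with the podocyte covariate and −0.23 (limma adjusted p = 0.351) with the tubule covariate. ATG-treated nondiabetic replicate 2 had the highest level of both genes in its group and the podocyte marker mean nearest to those of the other groups, 14.33 against 13.17 and 13.61 in the other ATG-treated nondiabetic mice. Its endothelial mean (13.622 against 13.240 and 12.819) and tubule mean (12.892 against 13.485 and 13.136) were also the nearest. Its mesangial and contractile mean (11.125 against 11.210 and 10.865) was not. The part of these marker levels was not tested further. The groups did not overlap for 5 of 10 members and for 34.4% of all listed genes.

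The difference between the ATG effect in diabetic and in nondiabetic mice was called for 0 members and for 0.546% of all listed genes, or 77, a count that went to 6 without vehicle-treated nondiabetic replicate 2 and to 770 without ATG-treated nondiabetic replicate 2. No member had an unadjusted limma p under 0.05 here, and limma-voom called 0 members as well. The lowest p values belonged to Ppp2r5b, at 0.24 (SE 0.13), and Igbp1, at −0.16 (SE 0.09), both with a limma adjusted p of 0.453.

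**Figure D4:**
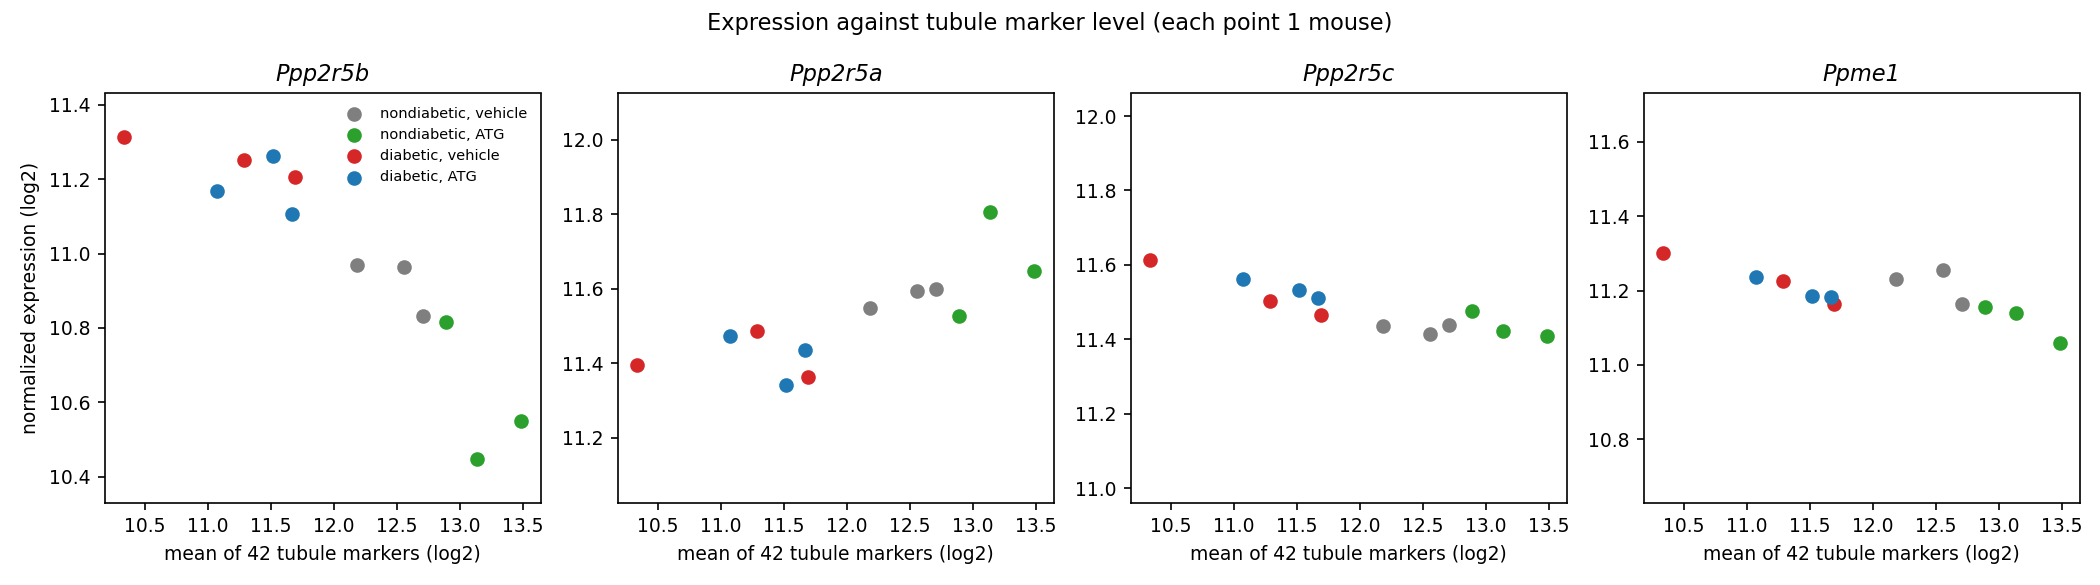
Normalized expression (log2, vertical axis, 1.1 units per panel) of 4 members against the mean log2 level of 42 tubule markers (horizontal axis), with each point 1 mouse, coloured by group. Ppp2r5b is at 11.31 in the mouse with the lowest tubule mean and at 10.55 in the mouse with the highest. Ppp2r5a moves the other way over 12 mice (r = 0.775), with r = 0.062 once group means are removed.

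For each member, the listed gene outside the set with the highest Pearson r over the 12 mice was Lgals9 for Ppp2r5b (0.989), Dhx38 for Ppp2r5d (0.977), Stk36 for Ppp2r5a (0.975), Mrpl11 for Igbp1 (0.973) and Eif4g1 for Ppp2r2a (0.955). It was Sec23a for Ppp2r5c (0.939), Zzz3 for Ppme1 (0.929), 4930402H24Rik for Ppp2r5e (0.909), Gipc1 for Ppp2r2d (0.905) and Kif14 for Set (0.899). The 12 mice share 4 group means, so these values describe likeness in this experiment only.

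Other parts of the enzyme were read from lists written alongside the members. Their counts stand beside the same background over all listed genes, 18.9% called and 10.2% called higher for diabetes with vehicle, and 46.7% called, 25.9% higher and 20.8% lower, with ATG. Of the 4 core genes, Ppp2r1a, Ppp2r1b and Ppp2ca differed by −0.01, 0.02 and 0.03 for diabetes with vehicle. The catalytic gene Ppp2cb differed by 0.29 (SE 0.09, limma adjusted p = 0.0521) with vehicle and was higher by 0.38 (SE 0.09, limma adjusted p = 0.00756) with ATG. Among 8 further regulatory subunits, 2 were higher and 1 lower for diabetes with vehicle, and 3 higher and 2 lower with ATG (4 higher and 2 lower by limma-voom). Lower with both treatments was Ppp2r2b, the B55 beta gene. It had 8.49, 8.19 and 8.58 in vehicle-treated nondiabetic mice and 7.09, 7.66 and 6.25 in vehicle-treated diabetic mice, a difference of −1.42 (SE 0.32, limma adjusted p = 0.0138). With ATG it was 8.89, 8.48 and 9.43 without diabetes and 7.39, 7.33 and 7.28 with it, a difference of −1.60 (SE 0.32, limma adjusted p = 0.00252). Ppp2r2b had r = 0.965 with the mean of the tubule markers over 12 mice, and 0.799 within groups, and the part of tubule content in its difference was not tested.

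Ppp2r3a, a B″ subunit gene, was lower by −0.97 (SE 0.16, limma adjusted p = 0.00116) for diabetes with ATG, differed by −0.45 (SE 0.16, limma adjusted p = 0.0710) with vehicle, and had r = 0.933 with the tubule marker mean. The subunits that were higher were Ppp2r3c (0.32) and the striatin Strn4 (0.17) with vehicle, and Strn4 (0.30), Strn3 (0.37) and Ppp2r2c (0.56) with ATG. With vehicle, Ppp2r2c differed by 0.37 (limma adjusted p = 0.203).

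Of 15 further modulators, 3 were higher and 0 lower for diabetes with vehicle by limma and by limma-voom (5 at an unadjusted p under 0.05). With ATG, 5 were higher and 3 lower by limma, and 5 higher and 2 lower by limma-voom. Ppp2r4, which encodes the activator PTPA, was higher by 0.19 (SE 0.06, limma adjusted p = 0.0408) with vehicle and by 0.22 (SE 0.06, limma adjusted p = 0.00847) with ATG. The methyltransferase gene Lcmt1, the counterpart of Ppme1, differed by −0.05 (limma adjusted p = 0.727) with vehicle and was lower by −0.32 (SE 0.09, limma adjusted p = 0.0145) with ATG. The inhibitor gene Anp32a differed by −0.17 with either treatment, with a limma adjusted p of 0.0599 for vehicle and 0.0315 for ATG. The PP2A inhibitor gene Cip2a, listed as C330027C09Rik, was higher by 0.73 (SE 0.17, limma adjusted p = 0.0181) with vehicle and by 0.58 (SE 0.17, limma adjusted p = 0.0183) with ATG.

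Mastl, the kinase that turns Ensa and Arpp19 into inhibitors of B55 enzymes, was higher by 0.73 (SE 0.16, limma adjusted p = 0.0142) and 0.81 (SE 0.16, limma adjusted p = 0.00282). Ensa (0.47) and Ier5 (1.15) were higher and Bod1 (−0.36) was lower with ATG. Beside Cip2a and Mastl, both known as cell-cycle genes, the 7 proliferation markers had 6 calls with vehicle and 7 with ATG, all higher, with medians of 1.61 and 1.68. The part of dividing cells in these differences was not tested. Over 12 mice, r with the tubule marker mean was −0.902 for Ppp2r4, −0.916 for Ensa, −0.887 for Cip2a, −0.768 for Mastl and −0.644 for Ier5. It was 0.853 for Anp32a, 0.832 for Bod1 and 0.760 for Lcmt1. With group means removed these were, in that order, −0.233, −0.611, −0.524, −0.042, 0.450, 0.295, 0.658 and 0.570. The part of tubule content in the modulator calls was not tested.

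STRIPAK partners, which bind PP2A through the striatins, gave 0 calls of 11 for diabetes with vehicle (3 at an unadjusted p under 0.05, and 1 called by limma-voom) and 7 higher with ATG, where 25.9% of all listed genes were higher, with medians of −0.02 and 0.23 against 0.01 and 0.05 over all listed genes. Among them were Cttnbp2nl (0.54), Pdcd10 (0.32), Sike1 (0.32), Fgfr1op2 (0.29), Mob4 (0.23) and Slmap (0.18). In that order, their r with the tubule marker mean over 12 mice was −0.868, −0.863, −0.742, −0.785, −0.848 and −0.748. With group means removed it was −0.635, −0.632, −0.825, −0.519, −0.327 and −0.873. In the same comparison 12 of 12 endothelial markers were higher, and the part of tubule or endothelial content in these calls was not tested. Of 13 genes of the related phosphatases PP4 and PP6, 2 were higher with vehicle, the PP4 catalytic gene Ppp4c (0.37) and Ppp4r2 (0.18). With ATG, 4 were higher, Ankrd44 (0.55), Ppp4c (0.30), Ppp4r1 (0.22) and Ppp4r2 (0.16), and Ankrd28 was lower (−0.33).

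Of 22 listed PP2A targets and B56 partners, 7 were higher and 0 lower for diabetes with vehicle by limma and by limma-voom (10 at an unadjusted p under 0.05). With ATG, 9 were higher and 1 lower by limma, a share called near the 46.7% of all listed genes, and 10 higher and 1 lower by limma-voom. The kinesin Kif4 (1.09), Sgol1 (0.68) and Bub1b (0.62), which act with B56 enzymes in mitosis, were among the 7, with Myc (0.87), Rela (0.33), Akt1 (0.31) and Mapk3 (0.27). The proliferation markers moved with these mitotic genes too, with 6 of 7 called higher with vehicle and 7 of 7 with ATG, and the part of dividing cells was not tested. With the mean of the tubule markers, Akt1 had r = −0.911, Mapk3 −0.898 and Rela −0.866 over 12 mice. With group means removed, these were −0.361, −0.336 and 0.353. The part of tubule content in these calls was not tested. With ATG they included Kif4 (1.09), Sgol1 (0.79), Bub1b (0.74), Ksr1 (0.71), Mapk3 (0.55), Akt1 (0.50), Rela (0.39) and Ckap4 (0.38), and Foxo3 was lower (−0.50). Akt1 had 11.69, 11.81 and 11.77 in vehicle-treated nondiabetic and 12.08, 12.03 and 12.07 in vehicle-treated diabetic mice, with a limma adjusted p of 0.00753.

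Of the 73 genes of these lists, limma and limma-voom called 0 in either ATG comparison and 0 for the difference between them. At an unadjusted limma p under 0.05 the diabetic comparison had 2 of them, the nondiabetic one 12 and the contrast of both effects 8, where 4.51%, 30.2% and 12.9% of all listed genes were under it, so that no count stands above its background. For ATG in diabetic mice, the lowest unadjusted p values were those of Myc (−0.69) and Rela (−0.14), both with a limma adjusted p of 1.00, and among the next were Ppp4c (−0.13), Ppp6c (0.10), Ppp2r1b (−0.15), Axin1 (−0.08), Ankrd28 (0.14), Cttnbp2nl (0.13) and Rb1 (0.14). Myc had 7.39, 7.50 and 6.68 with vehicle and 6.47, 6.53 and 6.50 with ATG, groups that did not overlap, from no more than 169 reads a mouse. For ATG in nondiabetic mice they were Rela (−0.20, limma adjusted p = 0.0625), Mapk3 (−0.28), Ppp2r3a (0.55), Ier5 (−0.73), Ankrd44 (−0.53), Cttnbp2nl (−0.26), Strn4 (−0.14), Bod1 (0.30), Akt1 (−0.16) and Sike1 (−0.27). For the difference they were Cttnbp2nl (0.39, limma adjusted p = 0.241), Ier5 (0.87), Fgfr1op2 (0.26), Mapk3 (0.28), Sike1 (0.35), Akt1 (0.20), Slmap (0.20), Ppp2r3a (−0.51), Lcmt1 (−0.27) and Ankrd44 (0.54).

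**Figure D5:**
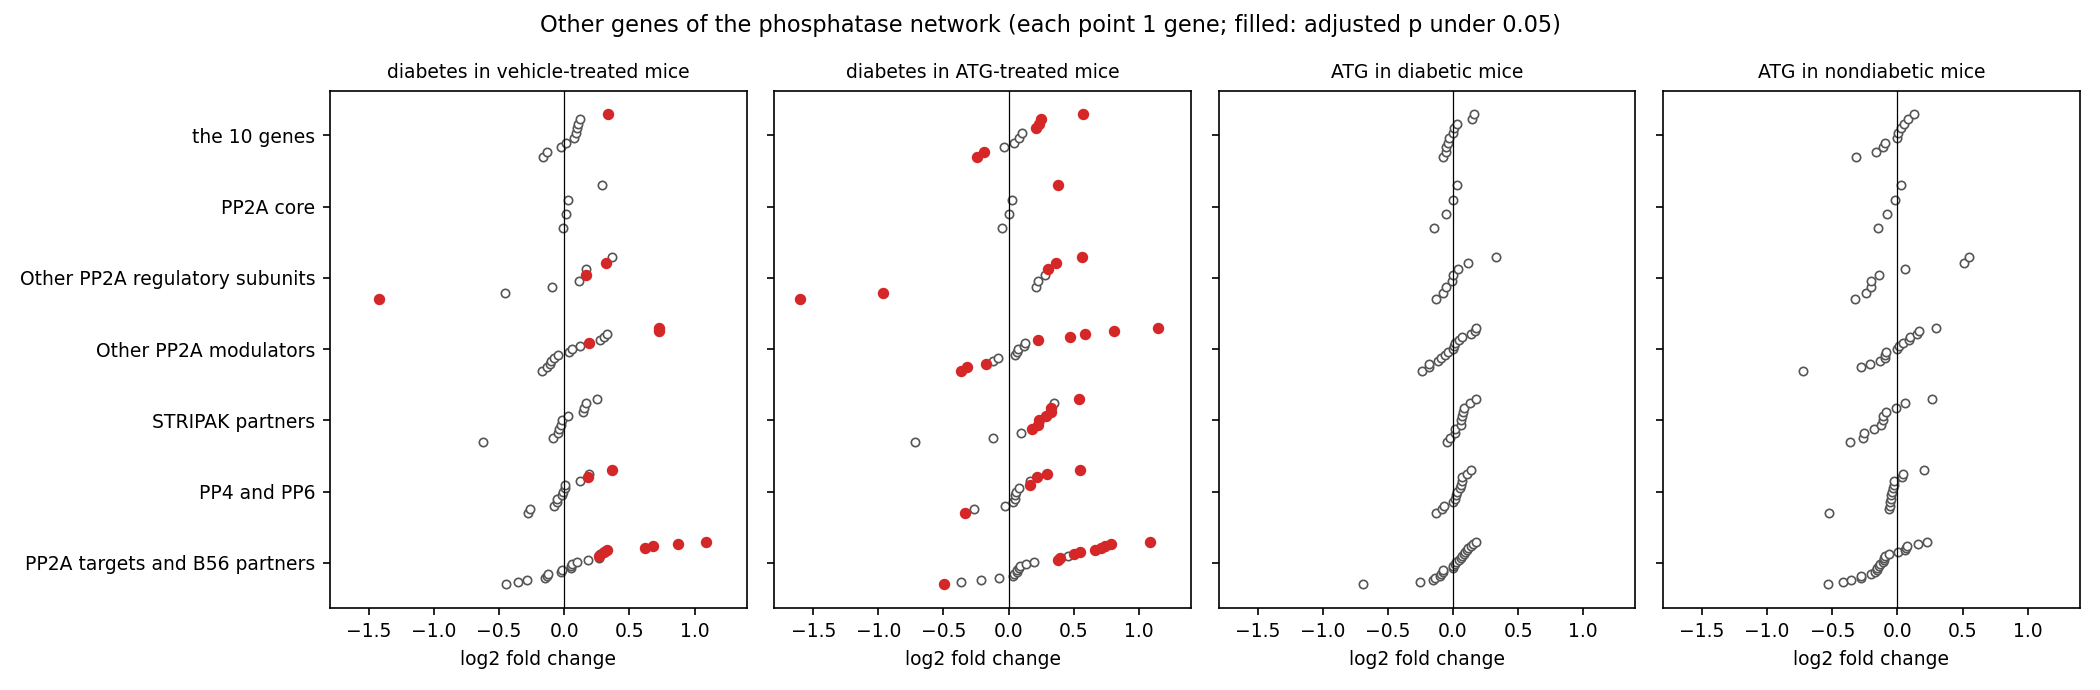
Log2 fold change (horizontal axis) of each gene of the 10 members and of 6 lists of related phosphatase genes in 4 comparisons, with filled points for a limma adjusted p under 0.05. Filled points are present for diabetes with vehicle and with ATG, where 7 of 11 STRIPAK partners are filled against 46.7% of all listed genes, and absent for ATG in diabetic and in nondiabetic mice.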

How the data were processed

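Glomerular mRNA of 12 mice was sequenced by the study, and the authors deposited 1 log2 normalized expression value per gene and mouse, with mm10 positions. Limma and mm10 are named in the submitters' processing notes. The aligner is not given in the sources used here. Linear values were whole multiples of 1 step per library for 83.4% to 84.0% of values under 2000 reads (tolerance 0.02 reads), which gave recovered reads of 23.6 to 29.8 M per mouse. Every listed gene reached a linear value of at least 100 in some mouse. Genes below that in all mice are thus absent from each share over all listed genes. No further low-value filter or pseudocount was applied in the main fit.

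Limma (version 3.58.1, R 4.3.3) with a mean-variance trend was fitted to all 14096 listed genes and 12 mice in 4 groups, with contrasts for diabetes in each treatment, ATG in each state, and the difference between the ATG effects, and Benjamini-Hochberg adjusted p over all listed genes. Permutation tests of a single gene are exact and two-sided. The test was also run on simulated data, drawn independently for each gene, with changes only between the diabetic groups. That simulation held no shift of cell content between mice, so it cannot show how the test behaves under such shifts. P-values measure the spread between mice. Levels per kb used the deposited transcript length of 1 transcript per gene. Promoter windows came from RefSeq (GRCm38.p6), matched by gene ID.

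The members and the gene lists were chosen with earlier results of these data known. All members are named, as are listed network genes with an adjusted p under 0.05 or among the 10 lowest p values of a comparison, the nearest relatives of the members, and for each member the gene with the highest r. Cip2a and Sgo1 were matched by synonym, and 1 STRIPAK partner and 1 B56 partner were not among the listed genes. Some network genes that meet this rule are not reported here.

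Alternatives were a minimum of 10 reads, a pseudocount of 10, median-ratio scaling, limma-voom on recovered reads, no trend, only the groups compared, a replicate block, each mouse left out, the 2 unnumbered nondiabetic mice left out and the tubule marker mean as a covariate. The podocyte covariate and leaving out vehicle-treated diabetic replicate 3 with ATG-treated nondiabetic replicate 3 were chosen after seeing the data. Python 3.11.15 and matplotlib 3.10.9 made the figures.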

Additional observations from a re-analysis of the deposited data

Results flagged for a closer look

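Igbp1 was noted because all 3 ATG-treated nondiabetic mice (10.86, 10.94 and 10.91) were above the mean of the vehicle-treated nondiabetic mice, 10.78, while all 3 ATG-treated diabetic mice (10.74, 10.74 and 10.66) were below the mean of the vehicle-treated diabetic mice, 10.75. The difference between the ATG effects was −0.16 on the log2 scale (SE 0.09), and it did not pass the limma test (adjusted p = 0.453). Among diabetic mice the vehicle and ATG groups overlapped.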

How the results depend on the processing

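Under 23 alternative settings, the 7 called member differences kept their sign in all 161 values. The call for diabetes in vehicle-treated mice (1 member) went to 0 without both unnumbered mice and with the tubule covariate, and ranged from 0 to 1 when each mouse was left out. The 6 calls for diabetes in ATG-treated mice became 3 with only the groups compared, 3 with the podocyte covariate and 0 with the tubule covariate, under which Ppp2r2a (0.35), Ppp2r2d (0.37), Ppp2r5d (0.24) and Ppp2r5a (−0.22) were as large as before or nearly so, with larger SEs. ATG in nondiabetic mice went from 0 calls to between 0 and 2 when each mouse was left out, the 2 without ATG-treated nondiabetic replicate 2. The cause was not tested. The fit with only the groups compared was not run for the difference between the ATG effects, which needs all 4 groups.

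Same-numbered mice are different animals, and over the 13 pairs that share a title number their deviations from the group means had r from −0.590 to 0.339, over 0.1 in 5, so the numbers were not taken to pair the mice. Between the diabetic groups, 5 of 6 mice were most alike with their own number, a hint from the data only. With the number as a replicate block, 0 members were called for diabetes in vehicle-treated mice (Ppp2r5b 0.26, limma adjusted p = 0.106) and 4 in ATG-treated mice (lost were Ppp2r5a at −0.21 and Igbp1 at −0.14), and the genes called over the whole table went from 2659 to 1375 and from 6585 to 4422.

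Of the 50 member differences, those that changed sign were all uncalled. The pair left out together was vehicle-treated diabetic replicate 3 and ATG-treated nondiabetic replicate 3, and ranges in parentheses are over single mice left out. For diabetes with vehicle, Igbp1 (−0.029) became 0.024 with the replicate block, 0.093 with the tubule covariate and 0.020 without that pair (−0.055 to 0.020). Ppme1 (0.014) became −0.0021 with median-ratio scaling, −0.021 with the block, −0.132 with the tubule covariate, −0.013 without the unnumbered mice and −0.022 without that pair (−0.022 to 0.046). Ppp2r5c (0.097) became −0.035 with the tubule covariate. For diabetes with ATG, the tubule covariate took Ppme1 from 0.082 to −0.103 and Ppp2r5c from 0.099 to −0.069, median-ratio scaling gave −0.00042 for Set, and Ppp2r5e (−0.037) became 0.037 with the podocyte covariate, 0.029 without that pair and 0.029 without the unnumbered mice (−0.112 to 0.029). For ATG in diabetic mice, Ppme1 (−0.030) became 0.0036 with the tubule covariate and 0.0058 without that pair (−0.062 to 0.0058). Ppp2r5a (0.0030) became −0.0037 with the podocyte covariate, −0.00092 with the tubule covariate and −0.0071 without that pair (−0.026 to 0.040), and Ppp2r5c (0.0081) ranged from −0.023 to 0.051. For ATG in nondiabetic mice, Ppp2r2d (0.026) became −0.069 with the podocyte covariate, −0.036 with the tubule covariate, −0.031 without that pair and −0.022 without the unnumbered mice (−0.031 to 0.057). Ppp2r5c (0.0058) became −0.0044 with limma-voom (−0.014 to 0.019), Ppp2r5e (0.049) −0.019 with the podocyte covariate and −0.017 without that pair (−0.017 to 0.124), and Set (−0.0057) 0.041 with median-ratio scaling (−0.035 to 0.024). For the difference between the ATG effects, Ppp2r5c (0.0023) became −0.025 with median-ratio scaling, −0.047 with the podocyte covariate, −0.034 with the tubule covariate and −0.0092 without the unnumbered mice (−0.028 to 0.045).

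The number of all listed genes called moved by over 1.5 times under several settings. With the tubule covariate, 361 and 115 genes were called for diabetes with vehicle and with ATG, and 47 for ATG in nondiabetic mice, with 36 for the difference. Diabetes with vehicle gave 4492 with the podocyte covariate and 801 (without vehicle-treated nondiabetic replicate 1) to 3357 (without ATG-treated nondiabetic replicate 2) without single mice. Diabetes with ATG gave 3807 with the podocyte covariate, 4314 without the unnumbered mice and 4766 to 7451 without single mice. The 77 genes for the difference became 19 with no trend, 8 with the block, 6 without the unnumbered mice, 42 with the podocyte covariate and 6 to 770 without single mice. ATG in nondiabetic mice gave 736 genes (100 higher and 636 lower), 538 with median-ratio scaling (130 higher and 408 lower), 0 with only the groups compared, 8 without the unnumbered mice, 112 with the podocyte covariate, 332 without that pair and from 60 (without vehicle-treated nondiabetic replicate 2) to 3531 (without ATG-treated nondiabetic replicate 2) with single mice left out. Every member had at least 879 recovered reads in every mouse.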
